A study of Mus musculus with 2 samples.

Results

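Long-read RNA sequencing reads a cDNA from end to end, so that a read of a spliced mRNA shows its exons joined and a read with no junction forms a single block. The regions described here are single-exon transcript models that were assigned to an annotated gene, were classed as genomic by the annotation program and held at least 5 reads in a library. They were chosen by 4 deposited values, namely the gene class (known), the transcript class (genomic), the exon number (1) and the read count (at least 5). These values are therefore given as descriptions, without a test. The rule took 1342 of 85327 models in replicate 1 and 1077 of 82087 models in replicate 2, which makes 2419 members. All of them lay on the strand of their gene. Both libraries were made from 2 µg of total RNA of heart from female B6CASTF1/J mice, a first-generation cross of inbred strains, at an age of 2 months. There was 1 group and no treatment, so the only comparisons were between the libraries and between classes of model. The labels numbered the animals differently in the sample titles and gave 1 donor for both in the library text, and hence it is not known whether the spread between the libraries includes that between animals.

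An mRNA ends where its precursor is cut and given a tail of A bases. The cut usually lies a short way behind a hexamer, most often AATAAA or ATTAAA, and many genes have several such sites in the last exon, giving 3' untranslated regions (3' UTRs) of different lengths. A block with no junction can come from a read that stops inside the last exon, from a precursor that still holds an intron, from DNA, or from a transcript that starts in an intron or runs past the gene. A primer made of T bases can also anneal to a stretch of A bases inside a transcript. How these libraries were primed was not given in the sources used here.

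To show both kinds of end, 30-base windows are printed 5' to 3' on the strand of the gene, from the exonic bases of the GENCODE M21 transcripts (mm10). The first set holds the last 30 bases of the members with most reads that carried AATAAA or ATTAAA there, 1 per gene, with the hexamer in capitals. They lie at chr15:77015487-77015516 (Mb, minus strand), chrX:36798778-36798807 (Slc25a5, plus strand), chr1:37898309-37898338 (Mrpl30, plus strand), chr17:48419231-48419260 (Apobec2, minus strand), chr7:19696267-19696296 (Apoe, minus strand) and chr1:75367690-75367719 (Des, plus strand). The Apobec2 window reaches upstream of the model itself, whose deposited length was 1 base.
Mb: gtctcAATAAAatatcctgcgagtcctcaa
Slc25a5: aaattgaagaAATAAAaatacccaaaacca
Mrpl30: ttctcATTAAAgtgtatgttcatccagtca
Apobec2: atagcaacatcAATAAAggaaataagtggt
Apoe: ttgcttAATAAAgattctccgagcacattc
Des: aaacaatAATAAAgagacaagcacaaacct

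The second set holds the last 10 bases of a model in lower case and the 20 bases after its 3' end in capitals. It takes the members with most reads whose 3' end met no annotated edge and was followed by at least 12 A in 20 bases, 1 per gene. They lie at chr6:127128753-127128782 (Gm43126, plus strand), chr11:101972940-101972969 (Gm20659, plus strand), chr6:142362112-142362141 (Pyroxd1, plus strand), chr10:81151602-81151631 (Zbtb7a, plus strand), chr16:38498757-38498786 (Cd80, plus strand) and chr7:27204876-27204905 (Itpkc, minus strand).
Gm43126: atcttttctcAAAAAAAAAAAAACAAAGCA
Gm20659: cattctgggcCAAAAAAAAAAAAAAAAAAA
Pyroxd1: cagactggatGTTGGAAAGAAATAAAGAAA
Zbtb7a: ggctgaaaggAAAAATAGAAAAAAAACAAA
Cd80: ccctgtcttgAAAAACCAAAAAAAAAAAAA
Itpkc: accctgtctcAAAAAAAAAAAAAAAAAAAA

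Replicate 1 held 905154 reads in all and 859191 on annotated genes, and replicate 2 held 745375 and 707758. Levels are counts per 1000000 reads of annotated genes (CPM), and where a gene had no read its level could be up to 3.49 CPM in replicate 1 and 4.24 in replicate 2. Intervals and limits cover counting error only. Those over both libraries count a stretch found in both as 2 members, and may therefore be too narrow. All 6 heart muscle markers were found, with 38946 and 42820 CPM in sum. Of 4 skeletal muscle markers 3 were at 0 in each library, and of 3 liver markers 2 and 3 were at 0. The haemoglobin genes Hba-a1 and Hbb-bs, markers of red blood cells, made up 25535 and 23673 CPM, and their part in the results below was not tested.

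Members carried 34169 reads (3.98% of the reads of annotated genes, Wilson 95% interval 3.94 to 4.02) in replicate 1 and 27833 reads (3.93%, 3.89 to 3.98) in replicate 2. The 2 libraries differed by less than the width of these intervals, but the class given to 1 gene weighs on this. Slc25a4 gave 4230 of the member reads in replicate 2 and none in replicate 1. There its 5240 single-exon reads were on incomplete-match models, a class for reads that fit part of an annotated transcript. Such models with at least 5 reads took 2.43% and 1.57% of the reads of annotated genes, with Wilson intervals that did not overlap. Agreement between the libraries is therefore not read from the member shares. Single-exon genomic models of any depth were many more than the members, 7357 and 7001, but had a median of 1 read and together 43664 and 36799 reads. At the threshold itself, 216 and 188 models had exactly 5 reads and 330 and 290 had exactly 4. Of the models with 5 reads 82.4% and 80.3% lay in a last exon, and of those with 4 reads 78.2% and 78.6% did. The reads were concentrated in few members: the 10 with most reads held 32.4% and 40.9% of all member reads.

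Members belonged to 1283 genes in replicate 1 and 1048 in replicate 2, with 720 genes in both, which is 56.1% of the first list and 68.7% of the second. Most genes had 1 member. Only 54 and 25 genes had more, up to 4 and 6 in 1 gene. Protein-coding genes gave 1276 and 1012 of the members (95.1% and 94.0%). Antisense genes gave 38 and 36, and long intergenic non-coding genes 11 and 16.

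Among genes with a member, the members took a median of 23.9% of the reads of the gene in replicate 1 (quartiles 9.52 and 54.5) and 24.3% in replicate 2 (9.47 and 54.2). In 370 and 297 genes (28.8% and 28.3%) they took at least 50%, and in 64 and 56 genes they took every read, where the median gene had only 8 reads in each library.

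The gene with most member reads was Pln, which encodes phospholamban, the small membrane protein that restrains the calcium pump of the sarcoplasmic reticulum. In replicate 1 its members were chr10:53343485-53344271 with 4599 reads and chr10:53344271-53345987 with 318 reads. In replicate 2 there was 1 member, chr10:53343515-53345987, with 3310 reads. The 2 models of replicate 1 meet at base 53344271, an annotated transcript end, and together span nearly the stretch that is a single model in replicate 2. Genomic models took 75.7% of 6492 Pln reads in replicate 1 and 70.7% of 4680 in replicate 2 (73.2% ± 3.54, SD, n = 2). The annotated 2-exon transcript Pln-201 took 1418 and 1256 reads, fewer than the members in both libraries.

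Mb encodes myoglobin, the oxygen-binding protein of heart and red skeletal muscle. Its member was the same stretch in both libraries, chr15:77015487-77015817 in the 3' UTR of the last exon, with 1976 of 3709 reads in replicate 1 and 1446 of 2932 in replicate 2. The genomic share was 51.3% ± 2.75 (SD, n = 2). Both ends of this model are annotated transcript 3' ends, so that the block spans the distance between the ends of a shorter and a longer annotated form. Its last bases are the first sequence above.

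Several of the genes with most member reads encode mitochondrial proteins. Slc25a5, an ADP/ATP carrier of the inner membrane, had members of 1037 of 1460 reads and 554 of 949 reads, and these ran from the transcript start to its end across 3 introns (chrX:36795654-36798807 in replicate 1). Its paralog Slc25a4, the carrier of heart and muscle, had a member only in replicate 2, chr8:46206797-46207543, with 4230 of 14331 reads. Slc25a4 and Slc25a5 have near-identical copies in the genome, and how the counting treated such copies was not given, so both are uncertain. Mrpl30, a protein of the mitochondrial ribosome, had 576 of 718 reads and 403 of 505 reads on the same 174 bases. Atp5g2, the ring subunit of the ATP synthase, had 160 of 275 and 152 of 226 reads on the same 151 bases. Coq3, which acts in coenzyme Q synthesis, had 140 of 187 and 87 of 138 reads, on models of 1 base and 344 bases. The model lengths differed while the shares of the gene, 74.9% and 63.0%, were each above 60%.

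Esrra encodes the oestrogen-related receptor alpha, a nuclear receptor that acts on genes of oxidative metabolism. Its members held 836 of 894 reads in replicate 1 and 466 of 494 in replicate 2, a mean share of 93.9% ± 0.58 (SD, n = 2). The model of replicate 1 (chr19:6910834-6911049) ran 143 bases past the annotated gene end, whereas that of replicate 2 (chr19:6910977-6911049) stopped on it, so that the position classes differ although the models share 73 bases. Both overlapped an exon of Trmt112 on the other strand, a gene with 33 and 19 reads. Gabarapl1, which acts in autophagy, had members with 468 of 527 and 242 of 279 reads. Apobec2, the muscle member of a family of cytidine deaminases, had 522 of 655 and 281 of 404 reads, all on a model 1 base long at chr17:48419231. Apoe, a lipoprotein component, had 423 of 846 and 275 of 592 reads on 354 bases, 68.1% of them coding. Nexn, an actin-binding protein of the Z-disc, had 277 of 724 and 177 of 524 reads over 2 members in each library.

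**Figure D1:**
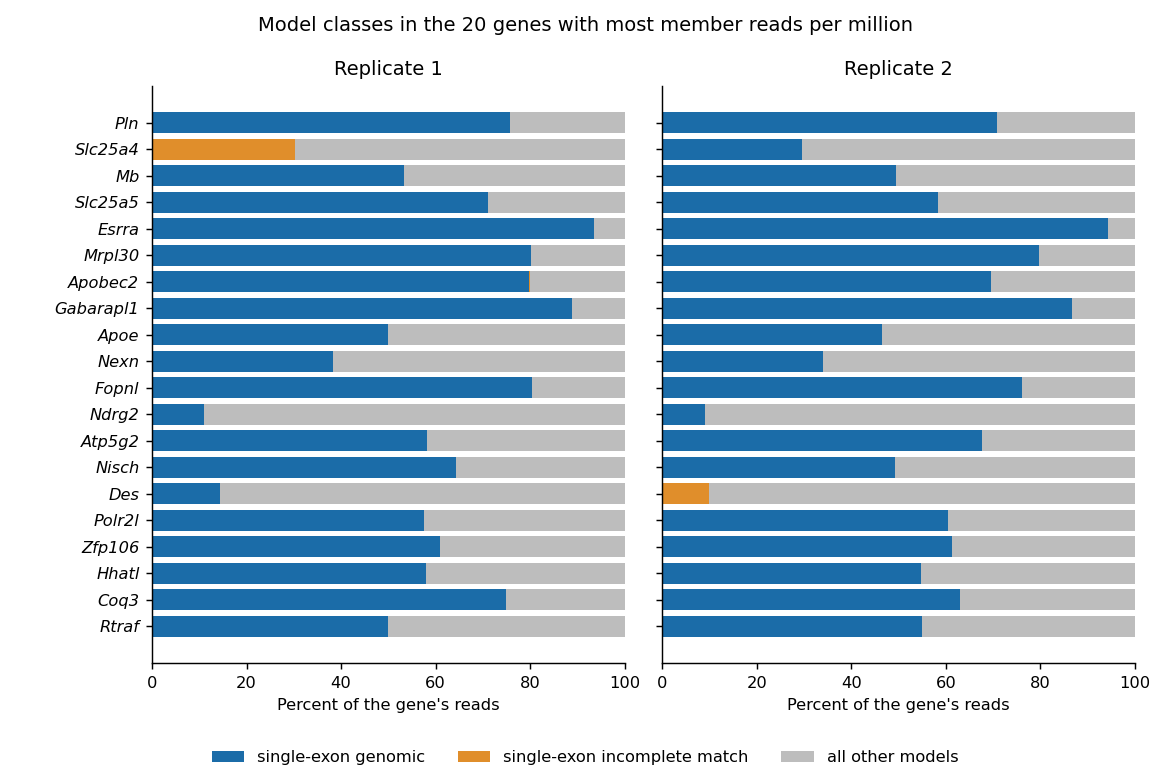
Percent of the reads of each gene (x axis) on single-exon genomic models (blue), single-exon incomplete-match models (orange) and all other models (grey), for the 20 genes with the highest mean member CPM, 1 panel per library. Slc25a4 has no genomic read in replicate 1 and Des none in replicate 2, where their single-exon reads are all on incomplete-match models. Among the other genes the shares differ most in Nisch (64.4% and 49.3%) and Slc25a5 (71.0% and 58.4%).

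Among the genes with a member and at least 50 reads in each library, A530058N18Rik, AC154200.1, Gm15337, Gm20659 and Gm43126 had 100% of their reads on genomic models in both libraries. A530058N18Rik is a non-coding gene, and its 109 and 90 reads lay in its intron, opposite exons of Actc1, the cardiac actin gene, which had 2506 and 1917 reads. AC154200.1 had 94 and 59 reads on 280 intronic bases that overlapped Oaz1-ps, a processed pseudogene on the same strand. Oaz1-ps itself had 3 and 8 reads, and its parent gene Oaz1 had 1543 and 1314. How the counting treated such copies was not given, so the reads of AC154200.1 are uncertain too. Myadml2 had 76 of 78 and 74 of 75 reads on a block of 2128 bases from the annotated start to the annotated end, across both introns. Cacna2d3, a calcium channel subunit, had 81 of 83 and 64 of 64 reads in an intron opposite Lrtm1. In Nckap5 and Kidins220, 106 and 89 reads and 106 and 72 reads lay on intronic stretches of 90 and 179 bases in replicate 1. Myadml2 had 1 and 0 reads on known models, and Cacna2d3, Nckap5 and Kidins220 had 0 in each library.

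By position in the gene, 1102 of 1342 members (82.1%, 79.98 to 84.07) in replicate 1 and 851 of 1077 (79.0%, 76.5 to 81.3) in replicate 2 had at least 95% of their bases inside an annotated last exon. They held 81.4% and 84.7% of the member reads. In protein-coding genes, 74.8% and 72.1% of members lay by at least 95% in the 3' UTR, and of all bases of these members 78.3% and 75.5% were 3' UTR and 7.13% and 6.49% were coding. The 3' end itself fell in a 3' UTR for 1141 and 876 members and in coding sequence for only 5 and 8. No member belonged to a gene without an annotated intron.

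The other classes were small in both libraries. Members inside introns numbered 85 (6.33%) and 79 (7.34%), those past the annotated gene end 51 (3.80%) and 50 (4.64%), those that covered a whole intron with at least 10 bases on either side 50 (3.73%) and 44 (4.09%), and those partly in an exon and partly in an intron 45 (3.35%) and 47 (4.36%). Members in an exon other than the last numbered 9 and 6. For each class the Wilson intervals of the libraries overlapped.

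**Figure D2:**
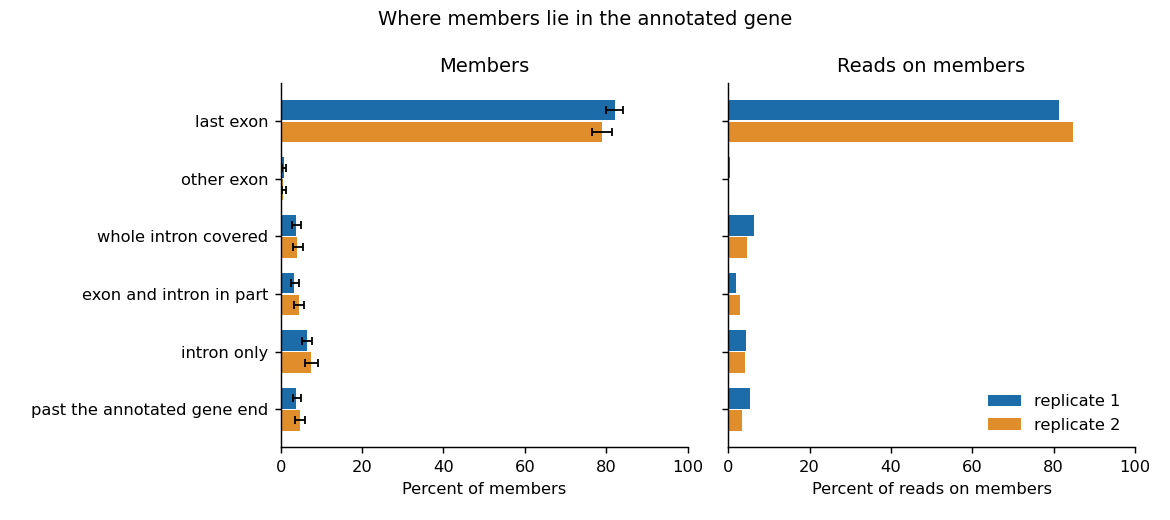
Percent of members (left) and of member reads (right) in each position class, by library, with Wilson 95% intervals for the members. The last exon takes 82.1% and 79.0% of members, and no other class reaches 8%.

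Of the 94 members of both libraries that covered a whole intron, 32 ran from an annotated transcript start to an annotated 3' end. Tcap, the titin cap protein, had 69 of 1900 and 64 of 1799 reads on the same 1143 bases from start to end across its intron. Pnpla2, the lipase that starts the breakdown of stored fat, had 25 of 182 and 16 of 172 reads on a block of 3075 bases across 10 introns. Mhrt, an antisense transcript of the myosin heavy chain locus, had 29 reads on a block across 3 introns in replicate 1 and 11 reads in its last exon in replicate 2, opposite Myh7 in both. Des, the intermediate filament protein of muscle, had 320 of 2216 reads across an intron in replicate 1 and none of 1972 reads in replicate 2. Fth1, the ferritin heavy chain, had 23 and 20 reads on a block of 2389 bases that an annotated unspliced transcript also covers. The Fth1 block is therefore classed with other exons. Shares were below 15% in all of these but Mhrt. They were not low throughout the class of whole introns. Its members took 97.4% and 98.7% of the reads of Myadml2 and 71.0% and 58.4% of those of Slc25a5.

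The longest member was in Cpeb4, a regulator of cytoplasmic polyadenylation, with 10168 bases and 5 reads in replicate 1. Plec, a linker of the cytoskeleton, had 65 reads on 9437 bases in replicate 1 and 48 reads on 3 bases in replicate 2. Both Plec models end at the same annotated 3' end, and only the 5' starts differ. The 10 genes with the longest members had between 5 and 65 reads on them.

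Of the members past the annotated gene end, 1 of 51 and 2 of 50 overlapped an exon of another gene on the same strand. Gm43126 had 163 and 65 reads on 2979 and 3044 bases that began at an exon edge and ended 2607 and 2672 bases past the annotated end, opposite Ccnd2. Gm20659 had 87 and 52 reads on the same 1301 bases, opposite Dusp3. Cd80, a costimulatory ligand of immune cells, had 32 of 32 and 22 of 22 reads on blocks that ended at the same base, 2431 bases past its annotated end. In these 3 genes no read fell on an annotated model, and the 20 bases after the end held 17 (Gm43126 in replicate 1), 19 and 18 A, as printed above.

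Of the members, 217 (16.2%) and 191 (17.7%) overlapped an exon of a gene on the opposite strand, and 40 (2.98%) and 34 (3.16%) an exon of another gene on the same strand. The overlap with the opposite strand was 12.5% and 12.7% for members in last exons and 18 of 51 and 19 of 50 for those past the gene end. The opposite gene had more reads than the member's own gene in 61 of 217 and 45 of 191 of these cases, in 38 of 180 and 20 of 157 for members of protein-coding genes, and in 15 of 26 and 15 of 23 for members of antisense genes. Whether strand was used in counting was not given, so that reads of a gene and of its opposite partner cannot be told apart here.

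The deposited start and end of a model did not describe single reads. Of 2419 members, 1837 (75.9%, 74.2 to 77.6) ended exactly on an annotated transcript 3' end, and 979 (40.5%, 38.5 to 42.4) started exactly on an annotated 3' end. Both held for 846 (35.0%), which ran from 1 annotated end to another or to the same one. A further 83 members (3.43%) started on an annotated transcript start and 259 (10.7%) on an exon edge, which left 1098 (45.4%) with a start on no annotated edge.

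This bears on length. The median length was 848 bases in replicate 1 (quartiles 284 and 2125) and 977 in replicate 2 (275 and 2501), but 135 members (10.1%) and 117 (10.9%) were shorter than 50 bases and carried 4044 and 2408 reads. Of these 71 and 66 were 1 base long, and 119 of those 137 lay exactly on an annotated 3' end. Apobec2 had the most reads of any 1-base model (522). Bfar had 60 and Tsc1 67 reads on 1 base in replicate 2, and Hhatl had 136 and 103 reads on 7 bases in both libraries. A read cannot be 1 base long, and where the single reads started cannot be read from these models.

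Single-exon incomplete-match models, the class for reads that fit part of an annotated transcript, were the nearest relatives of the members and numbered 553 and 450 with at least 5 reads. None was shorter than 78 bases. Of 1003, 933 (93.0%, 91.3 to 94.4) started on an exon edge that was no transcript start, against 10.7% of members, and none (0 to 0.382) started on an annotated 3' end, against 40.5%. At the 3' side 92.0% (90.2 to 93.5) ended on an annotated 3' end, against 75.9%. These intervals do not overlap, but the 2 classes were set apart by the annotation program with these same coordinates, so the contrast describes the classes.

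**Figure D3:**
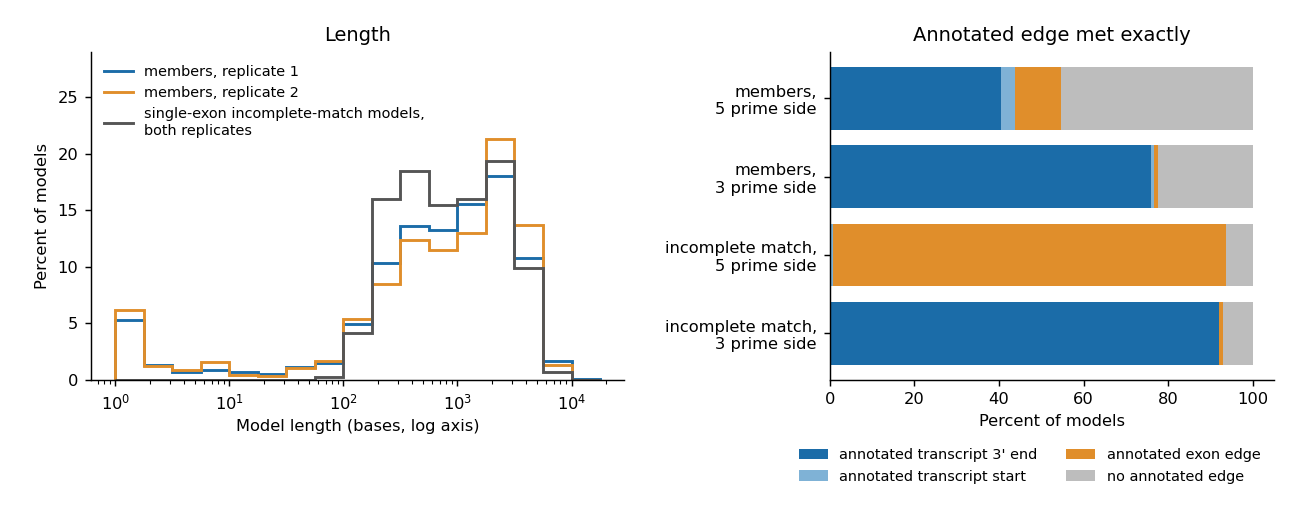
Left, distribution of model length (log axis) for members in each library and for single-exon incomplete-match models with at least 5 reads. Right, percent of models of both libraries whose 5' or 3' side falls exactly on an annotated transcript 3' end, transcript start, other exon edge or no annotated edge. Members have a peak at 1 base that incomplete-match models lack, and 40.5% of them start on an annotated 3' end.

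The bases at the 3' end could be read where annotated exons cover them. A hexamer (AATAAA or ATTAAA, sense strand, whole within the last 50 bases) was found for 997 of 1219 members (81.8%) in replicate 1 and 776 of 965 (80.4%) in replicate 2. Of all 50-base windows in last exons of protein-coding genes 5.55% held one. For members ending on an annotated 3' end the share was 87.7% (86.1 to 89.1) of 1834. Those ends are annotated coordinates, so this share describes them and not where reads ended. The share was 49.1% (43.8 to 54.5) of 332 among members whose end met no annotated edge. By comparison, 50.2% of 5598 annotated 3' ends in genes with at least 20 reads in each library but no member had a hexamer. That set holds every annotated end, used or not. AATAAA accounted for 1480 and ATTAAA for 293 of the members with a hexamer. These shares count members, not reads. Among the genes with most member reads, the members of Pln, Slc25a4 and Esrra had neither hexamer. Those of Mb, Slc25a5, Mrpl30, Apobec2 and Apoe carried AATAAA or ATTAAA.

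At least 12 A in the 20 bases after the 3' end were found for 50 of 409 members (12.2%, 9.40 to 15.8) and 38 of 320 (11.9%, 8.78 to 15.9) with sequence, against 1.47% of all 20-base windows in last exons. Sequence after the end was at hand only where an annotated exon runs on past it. This held for 360 of 1837 members ending on an annotated 3' end and 336 of 544 ending on no annotated edge. The share was 6.67% (4.52 to 9.73) of these 360 and 18.2% (14.4 to 22.6) of these 336, and the 360 need not stand for all 1837. In the latter group, 5 of 316 members with both windows had a hexamer before and an A-rich stretch after the end, 56 only the A-rich stretch, 155 only the hexamer and 100 neither. By position, an A-rich stretch followed 22 of 245 such ends in last exons and 18 of 40 in introns, whereas a hexamer preceded 153 of 246 and 0 of 32. Intronic ends have sequence only where another annotated exon covers them, so these 40 are not all intronic members.

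**Figure D4:**
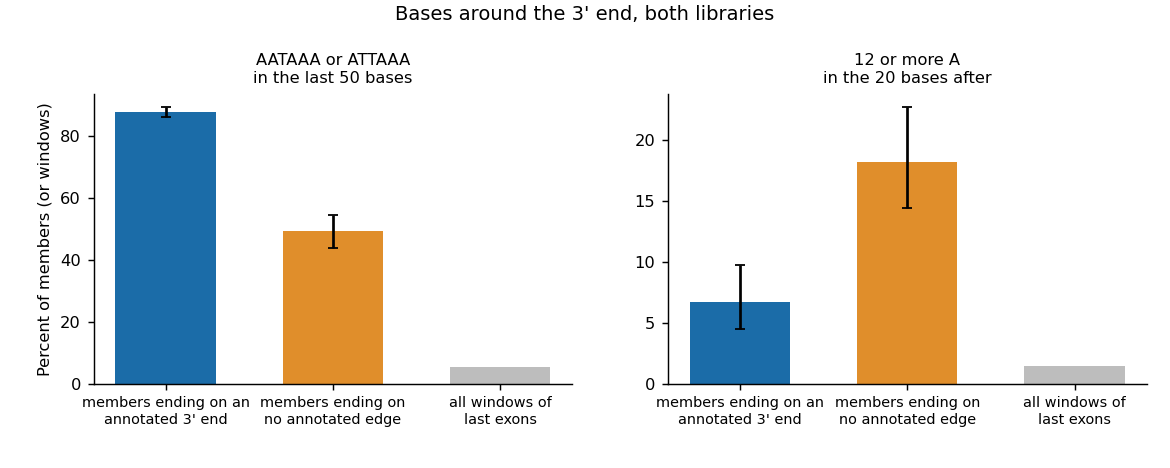
Percent of members of both libraries with AATAAA or ATTAAA in the last 50 bases (left) and with at least 12 A in the 20 bases after the end (right), for ends on an annotated 3' end and ends on no annotated edge, with Wilson 95% intervals, beside all windows of last exons. Ends on no annotated edge have the hexamer less often (49.1% against 87.7%) and the A-rich stretch more often (18.2% against 6.67%), and the intervals do not overlap. The 6.67% rests on 360 of 1837 members. Ends on no annotated edge include those in introns and past the gene. In last exons alone 153 of 246 of them had the hexamer and 22 of 245 the A-rich stretch.

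Between the libraries, 766 of 1342 members of replicate 1 (57.1%, 54.4 to 59.7) and 650 of 1077 of replicate 2 (60.4%, 57.4 to 63.2) had a single-exon genomic model in the other library that shared at least 50% of both models. Any overlap was found for 83.0% and 85.4%. Of the 766 partners seen from replicate 1, 343 (44.8%) had identical coordinates. Partners were found for 62.8% (55.2 to 69.8) of members inside introns, 59.3% (57.1 to 61.5) of those in last exons and 42.6% (33.4 to 52.3) of those past the gene end. The share was 62.1% (54.6 to 69.1) for members with at least 50 reads and 57.0% (54.3 to 59.6) for those with 5 to 9 reads, with overlapping intervals. Of members without a partner, 100 of 576 (17.4%) and 78 of 427 (18.3%) were matched by an incomplete-match single-exon model of the other library under the same 50% rule. At the level of genes, 1250 of 1283 (97.4%) and 1033 of 1048 (98.6%) had some single-exon read of either class in the other library.

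The share of a gene's reads on single-exon genomic models was compared between the libraries with a two-sided Fisher's exact test in the 3060 of 4651 annotated genes with at least 20 reads in each library that also had at least 1 such read in either library. Genes without one could not differ and were not tested, so the percentages of called genes are of a set chosen in part by the tested reads. The test compares these 2 libraries, not conditions. After Benjamini-Hochberg adjustment 110 genes (3.59%) were called, that is, had an adjusted p below 0.05 and a difference of at least 10 percentage points, 53 (1.73%) higher and 57 (1.86%) lower in replicate 2. Of the 110, 108 held a member, out of 1152 tested genes with one (9.38%). The rule for members used these same counts, so nothing is read from that share.

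In most called genes the difference moved with the class given to the block. In 81 of the 110 genes 1 library had no genomic read at all, and in all 81 both libraries had reads on single-exon models once incomplete-match models were counted too. Tsc1, a suppressor of growth signalling, had 0 of 116 reads on genomic models in replicate 1 and 67 of 68 in replicate 2. With incomplete-match models it had 113 and 67, or 97.4% and 98.5%. Slc25a4 had 0 and 4230 genomic reads, and 5240 of 17316 and 4230 of 14331 single-exon reads. The model of replicate 1 (chr8:46206797-46207620, 824 bases) and that of replicate 2 (747 bases) end on the same base and start 77 bases apart. Dysf, a protein of membrane repair in muscle, had 0 and 75 genomic reads but 106 of 167 and 75 of 134 single-exon reads. Kcnk3, a potassium channel, had 141 and 0 genomic reads but 190 of 550 and 166 of 467 single-exon reads. Chchd4, of mitochondrial protein import, had 78 and 0 genomic reads but 78 of 122 and 37 of 71 single-exon reads (63.9% and 52.1%). Slc8a1, the sodium-calcium exchanger, had 4 and 23 genomic reads but 35 of 39 and 23 of 25 single-exon reads.

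In the 81 genes the leading genomic model of 1 library and the leading incomplete-match model of the other shared the exact 3' end in 54 and lay within 50 bases of it in 65, but shared the 5' start in only 10. The genomic model was the shorter of the pair in 59, with median lengths of 1084 and 1909 bases. It was the class of replicate 1 in 39 genes and of replicate 2 in 42.

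When both single-exon classes were counted together, 3 of 3769 genes (0.0796%), those with a single-exon read of either class, were called by Fisher's exact test with Benjamini-Hochberg adjustment. The called genes were Slc25a5, Nmrk2 and Map2k7. Pln and Des were not called because they differed by less than 10 percentage points, yet their adjusted p was below 0.05. Pln had pooled shares of 75.7% and 70.7% (adjusted p = 5.77e-06 by Fisher's exact test). Des had 14.4% and 9.84% (adjusted p = 0.00501 by Fisher's exact test). Slc25a5 fell from 71.0% of 1460 reads to 58.4% of 949 (adjusted p = 7.94e-07 by Fisher's exact test). All single-exon reads of Slc25a5 were genomic, and with edgeR's likelihood ratio test on the genomic reads, which allows for variation between replicates through a preset value of 0.1 or 0.2, it was not called (adjusted p = 0.540 and 0.767). Nmrk2, a nicotinamide riboside kinase of muscle, had 29 of 66 reads in replicate 1 and 1 of 34 in replicate 2 (adjusted p = 0.00501 by Fisher's exact test). Map2k7, a kinase of the JNK pathway, had 15 of 51 and 0 of 43 (adjusted p = 0.0223 by Fisher's exact test) and no genomic read in either library. Of the 110 genes 2 were also called on the pooled share, and the median size of the difference over the 110 went from 23.1 to 5.16 percentage points. Named differences that changed sign are given with the other settings.

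**Figure D5:**
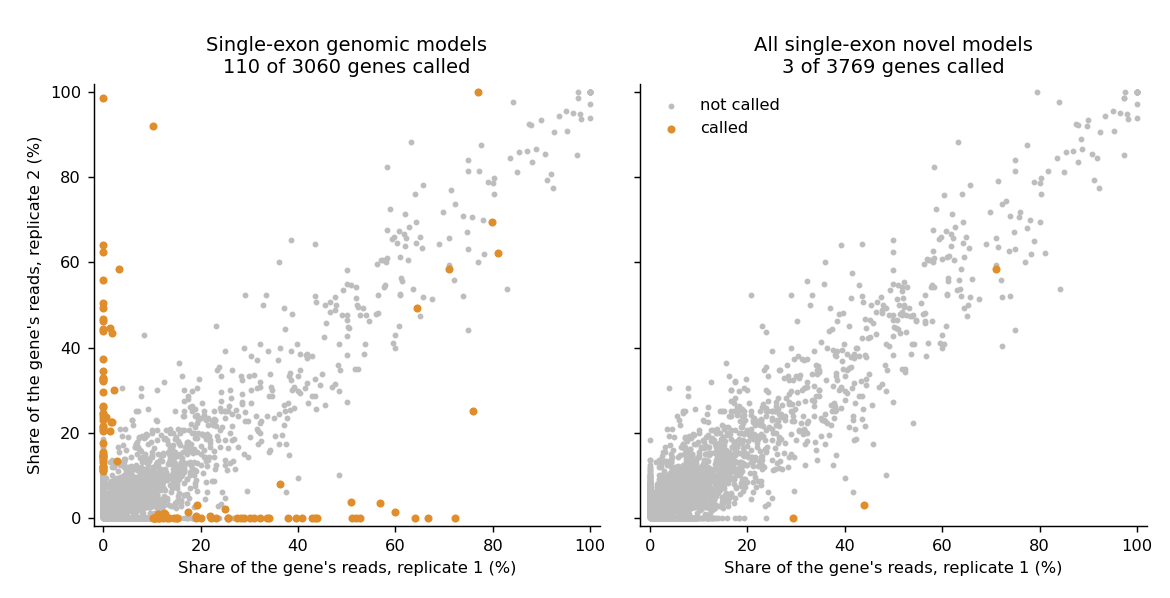
Share of each gene's reads on single-exon genomic models (left) and on all single-exon genomic and incomplete-match models (right), replicate 1 on the x axis and replicate 2 on the y axis, for genes with at least 20 reads in each library. On the left 110 called genes (orange) lie mostly along the axes, and on the right 3 genes are called.

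The counts of 2 adjoining genes went opposite ways between the libraries. In replicate 2 Usp50 had a member of 172 reads at chr2:126709096-126709354, while in replicate 1 it had 3 reads in all. The adjoining annotated model of the processed pseudogene Gm10774, chr2:126709354-126709557, had 290 reads in replicate 1 and 8 in replicate 2. The blocks meet in 1 base on the same strand, and the 2 genes together had 293 and 181 reads. This pair was chosen after its values were seen, and whether reads were assigned to another gene was not tested.

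Genes with a member differed from others in the annotation. Of 4651 annotated genes with at least 20 reads in each library, 1152 (24.8%) had a member. The longest annotated last exon had a median of 2119 bases in protein-coding genes with a member and 1470 in those without. Genes with a member also had more reads (median 160 against 98 over both libraries), so the comparison was repeated at like depth. It was 2595.5 against 1676 bases at 40 to under 100 reads, 2164 against 1375.5 at 100 to under 300 and 1530.5 against 939 at 300 or more. The share of genes with a member was 17.2%, 26.2% and 43.6% in the same order. The median number of annotated 3' ends was 5 in each set.

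By function, genes with a member were counted among list genes with at least 20 reads in each library, beside the 24.8% over all such genes. The sarcomere and Z-disc list had 18 of 30 genes with a member (60.0%) and calcium handling 10 of 16 (62.5%). The median gene of these lists had 814 and 368 reads over both libraries, against 109 over all genes, and 43.6% of protein-coding genes with 300 or more reads had a member. In calcium handling, members took 25.04% and 19.44% of the list's reads, mostly through Pln. Atp2a2, the pump that phospholamban restrains, had 117 of 8651 and 0 of 8700, while 1 and 92 of its reads were on single-exon incomplete-match models. Fatty acid use had 11 of 22 genes, and its median gene had 1270 reads. Lpl had 190 of 5208 and 0 of 4388 reads (and 155 incomplete-match single-exon reads in replicate 2). Cd36 had 29 of 610 and 17 of 485. The citric acid cycle and energy transfer had 11 of 21, and the median gene had 2244 reads. For both lists the 43.6% is the nearer comparison than the 24.8%. Sdha had 105 of 1859 and 94 of 1675 genomic reads. The nuclear genes of the ATP synthase and respiratory chain had 9 of 28 although their median gene had 2502 reads, and members took 0.369% and 0.508% of their reads.

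Splicing regulators had 7 of 18 genes with a member. Hnrnpa2b1 had 74 of 599 and 67 of 439 reads on the same 425 bases, and Ddx5 had 73 of 453 and 45 of 413. Endothelial genes had 5 of 11, cytosolic ribosomal proteins 4 of 22, the matrix and fibroblast list 2 of 12 and long non-coding RNAs 1 of 3. None of the 11 genes of the mitochondrial chromosome that reached 20 reads had a member or any single-exon genomic read. These genes have no introns, and no gene without an annotated intron had a member, so nothing about their function is read from this. Of the 110 called genes (3.59% of 3060 tested), 3 were among the 23 tested of the sarcomere list, 1 among 14 of the calcium list and 1 among 17 of the citric acid cycle and energy transfer list, and none was on another list.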

How the data were processed

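The authors deposited, per library, read counts for transcript models with gene and transcript classes, and annotation files with the coordinates of the models. The deposited counts were whole numbers, not normalized and not pooled. Genome (mm10) and annotation (GENCODE M21) are as stated in the text deposited with the files. The aligner, its version and any filters are not given in the sources used here. Every model was found in its annotation file with the same exon number and length.

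Reads were summed per gene without spike-ins. A member lay in the last exon when at least 95% of its bases were in a last exon of any transcript of the gene. A partner shared at least 50% of both models. Sequence came from annotated exons, so windows beyond them were not used here, and the planned comparison of A-rich stretches with spliced known models could not be made, since their exonic sequence stops at the end. All windows of last exons were used in its place. Known spliced models span several exons and gave no last-exon share to set beside the members. Shares were tested with Fisher's exact test (scipy 1.17.1), with Benjamini-Hochberg adjustment, and with edgeR 4.0.16 as an alternative, and the tests were tried on simulated data. Proportions have Wilson 95% intervals.

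Members, lists, tests and alternatives were chosen with earlier results of these data known. Named genes were the 20 with the highest mean member CPM, the 15 with the highest share at 50 or more reads in each library, the 5 members with most reads per position class, the 10 longest, the 10 largest called differences each way, and 3 per list. Not all are printed. Usp50, Gm10774, Kcnk3, Nmrk2, Map2k7, Pyroxd1, Zbtb7a, Itpkc and genes named as overlapping were chosen after their values were seen.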

Additional observations from a re-analysis of the deposited data

How the results depend on the processing

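No paired analysis was possible because there was 1 group. The number of called genes stayed within 1.5 times of 110 with at least 10 or 50 reads per gene and with edgeR at preset variation of 0.1 and 0.2, and moved to 194 with no minimum difference, to 211 of 1152 genes with members only (no test of the genes, since models under 5 reads then count as 0) and to 3 with incomplete-match models pooled in. Under that pooling the differences in share (replicate 2 minus replicate 1, in percentage points) changed sign for AI837181 (1.39), Ablim1 (0.76), Anks1 (-5.44), Bfar (-5.15), Dysf (-7.50), Mfsd5 (-11.8), Samm50 (0.70), Slc25a4 (-0.74) and Ubr7 (3.82). Of the other 16 named genes 15 were no longer called and 1 was. Among these 15, differences of at least 10 points remained in Twnk (-31.9), Rxra (24.7), Pbxip1 (-20.4), Nisch (-15.1), Paqr7 (12.5), Chchd4 (-11.8) and Apobec2 (-10.4). The rest of the 15 were below 10 points. With edgeR 3 of the 25 named genes at 0.1 (Apobec2, Nisch and Slc25a5) and 4 at 0.2 (Csnk2a2 too) were not called. The number of members was 4222 at 3 reads and 1113 at 10 reads, and 1077 to 1342 with 1 library left out. The share of members with a partner was 58.5%, and became 84.1% with 1 shared base, 43.6% at 80% of both models, 35.8% with both ends within 50 bases and 43.7% for partners of at least 5 reads. The share in the last exon was 80.7%, and 83.7% with protein-coding transcripts only. The share with an A-rich stretch was 12.1%, and 15.2% at 10 A, 10.8% at 14 A and 6.97% weighted by reads. Members of 50 bases or more, a setting chosen after seeing the data, gave 13.2% for that share and 74.1% against 75.9% for ends near an annotated end. The other settings moved these shares by less than 1 SD between the libraries. With 2 libraries, leaving 1 out gives the value of the other, which says nothing about stability. Cut-offs set these values in part by construction, and other causes were not tested. Model ends replace read ends, which limits every statement on length and on the bases around the 3' end.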
